A study of Mus musculus with 2 samples.

Results

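The histone genes were examined on a pair of microarrays, 1 of ALDH-positive and 1 of ALDH-negative 4T1 cells. 4T1 is an established mouse mammary carcinoma line of the BALB/C strain. Untreated cultured cells were sorted with the ALDEFLUOR kit, which turns aldehyde dehydrogenase (ALDH) activity into fluorescence, and the series labels the ALDH-positive cells cancer stem cells and the ALDH-negative cells anti cancer stem cells. No transgene, drug or gene deletion separated the populations, so ALDH activity in the sort was the only labelled difference. Each population had 1 array, so every difference below is between a pair of arrays and has neither a test nor a replicate spread.

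Members were chosen by the gene name in the array files. Names of the form Hist1h, Hist2h, Hist3h and Hist4h were taken as replication-dependent histone genes, and names that start with H2af, H3f3 or H1f as variant histone genes. The rule found 64 of the 34797 gene names on the array, of which 49 were replication-dependent and 15 variant. They were read by 78 probes of 60 bases, 74 of which carry an accession held by the GRCm38.p6 gene table used here. That table has newer symbols, and these are given in brackets where a gene is described.

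Histones are the proteins around which DNA is wound. H2A, H2B, H3 and H4 form the core of the nucleosome, and the linker histone H1 binds the DNA between cores. Replication-dependent histone genes lie in clusters, have no introns and are transcribed mainly in S phase, when new DNA has to be packed. Their mRNAs mostly end in a conserved stem-loop, bound by the protein Slbp, in place of a poly(A) tail. Variant histones such as H2A.Z, macroH2A and H3.3 are expressed throughout the cell cycle from genes with polyadenylated mRNAs. They replace the core histones at particular places in chromatin. Labelling kits of the kind used here start from an oligo-dT primer, so the class of mRNA and the chemistry are linked. How far that linkage set the histone signals was not tested.

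The stem-loop itself lay within some probes. A stem of the letters GGCNCT with their reverse complement after a loop of 4 bases was searched for, which reads alike on both strands, and was found in 6 of the 55681 probes of the array (0.0108%), and all 6 were probes of replication-dependent histone genes. None of the 23 variant probes held it. The stretches around it are shown because they mark the mRNA end that sets the class apart. They are written 5′ to 3′ on the mRNA strand, with the stem-loop in capitals.

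Hist2h2aa1: taaaaaGGCTCTTTTCAGAGCCacccact
Hist2h2bb: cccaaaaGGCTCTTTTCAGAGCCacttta
Hist1h3a: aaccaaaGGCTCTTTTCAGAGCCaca
Hist1h3i: aacaaaaGGCTCTTTTCAGAGCCccctc
Hist1h3g: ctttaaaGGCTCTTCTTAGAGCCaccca
Hist1h4m: aactaaaGGCCCTTTTCAGGGCCatccaa

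These probes lie at chr3:96049949-96050008 (plus strand), chr3:96074056-96074115 (plus), chr13:23853756-23853815 (minus), chr13:21874784-21874843 (minus), chr13:23627719-23627778 (plus) and chr13:21903960-21904019 (plus), in the order shown, on the NCBI37 build of the array files. The stem-loop was the same in the top 4 lines, had another loop in Hist1h3g, and had another pair in the stem of Hist1h4m. The log2 ratios of the 6 probes ran from -0.24 to 0.61, 3 above and 3 below 0, with a median of 0.02. The letters AATAAA, a common polyadenylation signal, were in 2 of 55 replication-dependent probes (3.64%), in 3 of 23 variant probes (13.0%) and in 10.1% of all probes. The reverse complement of AATAAA was in 2 replication-dependent probes, 1 variant probe and 3.74% of all probes.

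A signal is the scanner software's processed intensity after quantile normalization over both arrays, in arbitrary intensity units, and a log2 ratio is always ALDH-positive over ALDH-negative. A gene was counted as measured when a probe of it was well above background on at least 1 array, and it was represented by its measured probe with the highest mean signal. Errors are those that the scanner software gives for each signal, carried to the log2 ratio. They were about 0.20 for every bright probe, which is a fixed share of the signal, while spots of the same probe printed on 1 array differed by less, with a combined SD of 0.08 for a log2 ratio. Neither covers the spread between cultures or sorts.

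Over all 20384 measured genes the median log2 ratio was 0.02, and 46.0% were below 0. The arrays had 26983 (ALDH-negative) and 27501 (ALDH-positive) probes well above background. All 5 epithelial markers of the carcinoma line were measured. They had log2 ratios from 0.16 (Krt18) to 0.54 (Krt19). Among leukocyte markers Ptprc was not measured on either array, whereas Itgam had signals of 7301 and 3795 (log2 ratio -0.94, called lower) and Cd3e of 917 and 664 (-0.47). Of the endothelial markers Cdh5 was not measured and Pecam1 had signals of 27.0 and 31.3, and the fibroblast markers Col1a1 and Pdgfra had signals of 28.2 and 17.3 and of 135 and 132. The part of other cells in the histone values was not tested, and in bulk RNA fewer cells of a type cannot be told apart from less RNA per cell.

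In both populations most histone genes gave a signal. Of the replication-dependent genes 45 of 49 were measured, 43 of them on both arrays, and of the variant genes 11 of 15, all on both arrays. The genes without a signal well above background on either array were Hist1h2ac, Hist1h2bp, Hist3h2ba and Hist3h2bb-ps among the replication-dependent genes, and H1fnt, H1fx, H2afb1 and H2afb2-ps among the variants. H1fnt encodes a linker histone of the testis, and the H2afb genes are known from the testis as well. No histone probe was saturated or marked as an outlier spot.

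The replication-dependent class had a median slightly below that of all measured genes. Its median log2 ratio was -0.09, with 27 of 45 genes below 0. The variant class had a median of 0.00 (-0.0011), with 6 of 11 genes below 0. The difference between the medians was -0.09. With Hist1h1d and Hist1h2bq at the bounds of their fold, the replication-dependent median was also -0.09. This is no check of the median, because both genes stay above it either way. Of the 45 replication-dependent genes 14 (31.1%) were below 0 by more than their own error and 8 (17.8%) were above 0 by more than it. Of the 11 variant genes these numbers were 2 and 3. Over all measured genes the shares were 18.1% below and 19.4% above. The classes overlapped over the whole range of the variants, which ran from -0.30 to 0.33.

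**Figure D1:**
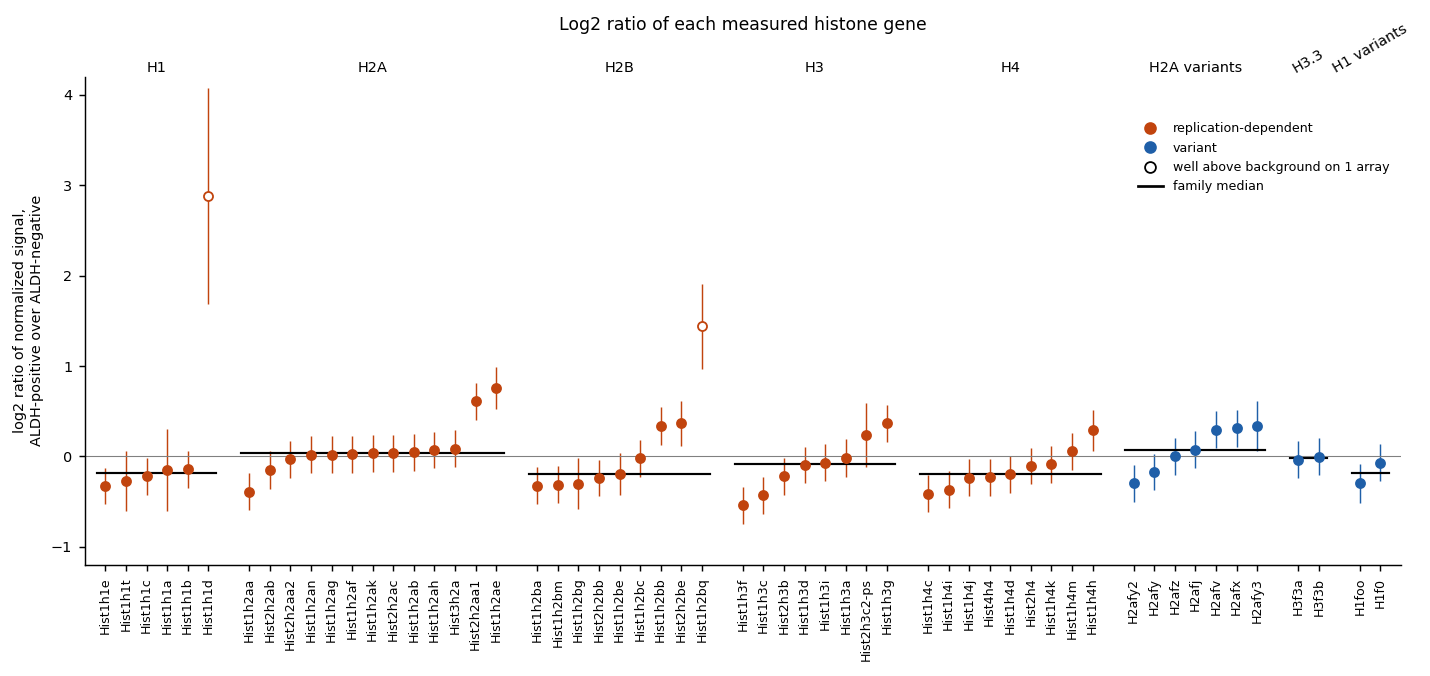
Log2 ratio (ALDH-positive over ALDH-negative) of each of the 56 measured histone genes, grouped by family and ordered by value, with the scanner error of the log2 ratio as bars and the family median as a black line. Open symbols are Hist1h1d and Hist1h2bq, drawn at the difference of their signals although they were not well above background on the ALDH-negative array. Most H4, H2B and H1 genes lie below 0, and most H2A genes lie at 0.

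The call rule of the study was applied gene by gene. A call of higher needed a ratio from 1.5 upwards and a Z-score from 2.0 upwards. A call of lower needed a ratio not above 0.75 and a Z-score not above -2.0. The study gives these limits but does not define its Z-score. Here, as a choice of this report, the Z-score sets a log2 ratio against the 250 probes on either side in mean signal. By this rule 1.58% of all measured genes were called higher and 3.25% lower. Among the 45 replication-dependent genes 2 were called higher (Hist1h1d and Hist2h2aa1) and 2 lower (Hist1h3c and Hist1h3f). None of the 11 variant genes was called. By the ratio alone, at 1.5 or its inverse, 5.72% of all measured genes were higher and 6.23% lower. The replication-dependent counts were then 4 and 0 and the variant counts both 0. By the ratio alone at 1.5 and 0.75, 5.72% of all measured genes were higher and 9.84% lower, and the replication-dependent counts were 4 and 2. Counts this small cannot be told apart from those shares.

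H3 held both genes called lower. In Hist1h3c (H3c3) the signal was 1655 for the ALDH-negative array and 1227 for the other, giving a log2 ratio of -0.43 ± 0.20 (scanner error) with a Z-score of -2.31. Hist1h3f (H3c7) had 509 and 350.0, a log2 ratio of -0.54 ± 0.20 with a Z-score of -2.19. Both encode core histone H3, and both probes cover the start of the reading frame. The parts of the probes from the start codon on are shown because they are nearly the same sequence, with capitals at the base that differs.

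Hist1h3c: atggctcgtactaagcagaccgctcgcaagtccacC
Hist1h3f: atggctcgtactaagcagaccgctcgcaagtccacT

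The stretches shared 35 of 36 bases, and the whole probes, at chr13:23837328-23837387 (minus strand) and chr13:23636330-23636389 (plus strand), matched in 45 of 57 overlapping bases. A transcript of either gene may therefore bind to both probes, and the calls are not separate observations. The ratio of Hist1h3c, 0.741, lay just inside the limit of 0.75, and that of Hist1h3f, 0.688, lay further inside it.

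The other H3 genes had smaller differences. Hist2h3b (H3c13) had signals of 5151 and 4423 (log2 ratio -0.22), Hist1h3d (H3c4) of 36102 and 33794 (-0.10), and Hist1h3i (H3c11) of 456 and 434 (-0.07). Hist1h3a (H3c1) had 145 and 143 (-0.02). Above 0 were Hist1h3g (H3c8), with 147 and 189.9 (0.37 ± 0.21), and the pseudogene Hist2h3c2-ps, with 20.1 and 23.6 (0.23 ± 0.35). The family median was -0.08 with 6 of 8 genes below 0.

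Most H4 genes lay below 0. The family median of the log2 ratio was -0.20, and 7 of 9 genes were below 0, of which 4 by more than their error. Hist1h4c (H4c3) had 1826 and 1369.7, a log2 ratio of -0.41 ± 0.20 and a Z-score of -2.06. Its ratio of 0.7501 was just outside the limit, so it was not called. Hist1h4i (H4c9) had 1006 and 780.0, a log2 ratio of -0.37 ± 0.20 and a Z-score of -2.02, with a ratio of 0.775. Both genes encode the same H4 protein as the rest of the family. The next were Hist1h4j (-0.24, signals 2353 and 1996), Hist4h4 (-0.23, 10459.6 and 8912) and Hist1h4d (-0.20, 29459 and 25667). Hist2h4 (-0.11, 61224 and 56893) and Hist1h4k (-0.09, 73367 and 68975) were nearer to 0. The genes above 0 were Hist1h4m (0.06, 223 and 232) and Hist1h4h (0.29 ± 0.23, 57.6 and 70.3).

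Several H4 probes read nearly the same codons. The probe of Hist1h4c and 1 of the probes of Hist1h4k are shown because the first has the largest difference of the family. Capitals mark the bases that differ between the lines.

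Hist1h4c: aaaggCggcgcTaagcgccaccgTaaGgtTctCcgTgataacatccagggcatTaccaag
Hist1h4k: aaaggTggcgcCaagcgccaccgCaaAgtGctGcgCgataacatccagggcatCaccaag

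They lie at chr13:23790223-23790282 and chr13:21842279-21842338 (both minus strand), matched in 52 of 60 bases, and neither holds a stop codon in the frame shown. The Hist1h4k probe had signals of 6997 and 5985 (log2 ratio -0.23). Of the H4 probes, 6 matched a probe of another H4 gene in at least 40 bases, and all 6 were below 0, with a median of -0.23 and a range from -0.41 to -0.03. Transcripts of 1 gene may bind to the probe of another, so these 6 values are not independent.

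Most H2A genes had a log2 ratio near 0. The family median was 0.03 over 13 measured genes, with 3 below 0. The probes of Hist1h2af, Hist1h2ag, Hist1h2ah, Hist1h2ak, Hist1h2an, Hist2h2aa2 and Hist2h2ac, and 1 probe of the variant H2afj, all had signals between 156371 and 248384 on both arrays. Their log2 ratios lay between -0.03 (Hist2h2aa2) and 0.07 (Hist1h2ah and H2afj), with a median of 0.03. The 7 replication-dependent probes begin 327 to 367 bases into their transcripts, and each of the 8 matched a probe of another gene in at least 40 bases. The probes that start at the same codon are shown, with capitals at bases that are rarer than another base at that position or equally divided among the 4 lines.

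Hist1h2af: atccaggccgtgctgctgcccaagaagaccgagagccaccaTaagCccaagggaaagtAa
Hist1h2ak: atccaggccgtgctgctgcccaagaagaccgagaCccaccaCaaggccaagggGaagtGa
Hist1h2an: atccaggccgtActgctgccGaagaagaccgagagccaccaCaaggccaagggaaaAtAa
Hist2h2aa2: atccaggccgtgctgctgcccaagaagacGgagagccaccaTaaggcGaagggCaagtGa

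Each line ends with the stop codon and holds no other stop codon in frame. The positions are chr13:23626113-23626172 (plus strand), chr13:21845304-21845363 (minus), chr13:21878695-21878754 (minus) and chr3:96049837-96049896 (plus). Any pair of the lines matched in 52 to 55 of 60 bases. The values of these genes may therefore stand for the H2A transcripts that share these codons together, and not for each gene. Binding across genes was not tested. Signals of this size change little between arrays in general: the SD of the log2 ratio over the 427 measured genes with a mean signal over 100000 was 0.12.

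Probes for H2A genes outside this group gave both the highest values of the family and its lowest. Hist2h2aa1 (H2ac18) was called higher, with 203 and 309.5, a log2 ratio of 0.61 ± 0.21 and a Z-score of 2.10. Its ratio of 1.526 was just inside the limit of 1.5. On the build of the array files its probe begins 52 bases after the end of the Hist2h2aa2 probe on the same strand, so the file places both probes in 1 copy of this duplicated gene. The Hist2h2aa2 probe at the end of the reading frame had a log2 ratio of -0.03, which is 0.64 below that of the Hist2h2aa1 probe on the stem-loop. Which of them follows this mRNA was not tested. Hist1h2ae (H2ac8) had signals of 52.0 and 87.9 (log2 ratio 0.76 ± 0.24) with a Z-score of 1.47, so it was not called. Hist3h2a (H2aw) had 555 and 589 (0.09), and Hist1h2ab (H2ac4) 42231 and 43604 (0.05). Hist1h2aa (H2ac1), known as the testis form of H2A, had 224 and 171 (-0.39 ± 0.21), and Hist2h2ab (H2ac21) had 125 and 113 (-0.15).

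H2B had a family median of -0.19 over 9 measured genes, 6 of them below 0. Hist1h2ba (H2bc1), known as the testis form of H2B, had signals of 3425 and 2735 (log2 ratio -0.32 ± 0.20). Whether mRNA of other H2B genes binds to this probe was not tested. Hist1h2bm (H2bc14) had 5395 and 4349 (-0.31 ± 0.20), Hist2h2bb (H2bc18) 5773 and 4893 (-0.24), and Hist1h2bc (H2bc4) 1220.3 and 1204 (-0.02). Dimmer probes went in both directions. Hist1h2bg (H2bc8) had 33.6 and 27.2 (-0.30 ± 0.28), Hist1h2be (H2bc6) 53.2 and 46.5 (-0.19), Hist1h2bb (H2bc3) 118 and 149 (0.34 ± 0.21) and Hist2h2be (H2bc21) 34.1 and 44.0 (0.37 ± 0.25). Hist1h2bq (H2bc23) was well above background on the ALDH-positive array alone, with signals of 11.2 and 30.3. By these background-subtracted signals it was at least 2.31-fold higher there. That bound sets the brighter signal against the higher of the dim probe's own signal and the lowest signal that was well above background on the dim array. It holds for this background subtraction only. The log2 ratio of Hist1h2bq was 0.32 with normexp, another background correction, and 0.32 without background correction, both smaller than the bound.

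H2B promoters are known for an octamer, ATTTGCAT, which is bound by Oct-1 with its coactivator in S phase. In the promoters of RefSeq genes on GRCm38.p6, read from 250 bases before to 50 bases after the gene start and on both strands, the octamer was in 6 of 9 H2B genes and 7 of 14 H2A genes. It was in none of the 6 H1, 5 H3 and 8 H4 genes, in 1 of 12 variant genes (H3f3b), and in 1.97% of all 27025 genes. The H2B octamers are shown in capitals with 16 bases on either side.

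Hist1h2ba: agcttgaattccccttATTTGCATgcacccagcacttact
Hist1h2bb: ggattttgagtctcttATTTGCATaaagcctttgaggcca
Hist1h2be: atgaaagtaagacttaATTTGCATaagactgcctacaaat
Hist1h2bg: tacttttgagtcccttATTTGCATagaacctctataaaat
Hist1h2bm: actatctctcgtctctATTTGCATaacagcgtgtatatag
Hist2h2bb: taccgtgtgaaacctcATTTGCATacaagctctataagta

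On GRCm38.p6 these stretches lie at chr13:23934297-23934336 (minus strand), chr13:23746628-23746667 (plus), chr13:23586014-23586053 (minus), chr13:23571325-23571364 (plus), chr13:21722003-21722042 (plus) and chr3:96269636-96269675 (plus). The octamer began between 25 and 164 bases before the gene start. All 6 genes were measured, 5 of them below 0, with a median log2 ratio of -0.27. The exception was Hist1h2bb (0.34). Of the 7 H2A genes with the octamer 6 were measured, and 5 of them were above 0, with a median of 0.06. These were Hist1h2ab, Hist1h2ae, Hist1h2ah, Hist2h2ac and Hist3h2a, and Hist1h2aa was below 0. The octamers of Hist1h2aa and Hist1h2ae lie on the same bases as those of Hist1h2ba and Hist1h2bg. They were therefore counted in both families. The letters CCAAT were in 36 of 42 replication-dependent promoters (85.7%), in 7 of 12 variant promoters (58.3%) and in 41.1% of all. By family CCAAT was in all 6 H1, 14 H2A, 9 H2B and 5 H3 promoters but in 2 of 8 H4 promoters. The letters TATAAA were in 26 replication-dependent promoters (61.9%), in 1 variant promoter (8.33%) and in 15.7% of all. A match describes the letters in this window and shows no binding.

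The linker histones H1 had a median log2 ratio of -0.18 over 6 genes. Hist1h1e (H1f4) had signals of 17180.2 and 13694 (-0.33 ± 0.20), Hist1h1c (H1f2) 1319 and 1134 (-0.22 ± 0.20), and Hist1h1b (H1f5) 8887 and 8048 (-0.14). Hist1h1t (H1f6), the testis form, had 31.8 and 26.4 (-0.27 ± 0.33), and Hist1h1a (H1f1) had 15.9 and 14.3 (-0.15 ± 0.45). Hist1h1d (H1f3) was called higher. Its signals were 3.8 and 28.0, and it was not well above background in ALDH-negative cells. By these background-subtracted signals it was at least 2.13-fold higher in ALDH-positive cells. With normexp, another background correction, its log2 ratio was 0.48, and without background correction it was 0.38. Both are smaller than that bound, which therefore holds for the main background subtraction only. Its Z-score was 2.42 and the scanner error of its log2 ratio was 1.2. The Hist1h1d probe begins 2886 bases into the transcript named by the array, whereas the RefSeq gene is 776 bases long, so the probe lies beyond the end of the current gene. Of 8 replication-dependent probes placed in this way 5 were measured. The 4 that were well above background on both arrays had a median of -0.26 and a range from -0.37 to 0.09, and the fifth was that of Hist1h1d. The 43 measured probes with a start in the transcript below the RefSeq gene length had a median of -0.10. That length is the span on the genome, 37455 bases for Hist1h2be and 8282 for Hist1h2bc. For such genes it does not mark the end of the mRNA.

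The place on the array is also given for these probes. Hist1h1d, Hist1h2bq and Hist1h2ae, the 3 with the highest log2 ratios, were all printed near an edge, in the last eighth of rows or columns. Over all measured genes the SD of the log2 ratio was 0.91 in that border (4956 genes) and 0.50 elsewhere (15428 genes), with medians of 0.01 and 0.02. Its part in their values was not tested.

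The sign of the log2 ratio of replication-dependent genes was set beside their signal, in ranges chosen after the values were seen. Of the 11 genes with a mean signal from 1000 to 10000, all 11 were below 0, 9 of them by more than their error, with a median of -0.24. Among all 5442 measured genes in that range 43.7% were below 0 and the median was 0.02. Over measured genes of any signal 18.1% were below 0 by more than their error. The probes of Hist1h4c and Hist1h4j, both among the 11, matched in 41 of 48 overlapping bases, so the 11 values may not all be independent. From 10000 to 100000, 5 of 6 were below 0 (median -0.10), against 45.8% of all 1911 measured genes in that range. Over 100000 the 7 shared H2A probes had a median of 0.02, and from 100 to 1000 the 11 genes had a median of -0.02. The signs in these ranges depended in part on the scaling. With each array shifted to its 75th percentile in place of quantile normalization, Hist1h2bc, in the range from 1000 to 10000, turned from -0.02 to 0.05. The 8 matching H2A probes, that of H2afj among them, then lay between -0.08 and -0.02, with a median of -0.07. Of the 10 genes under 100, the 8 that were well above background on both arrays had a median of 0.04, with 4 above and 4 below 0, and the remaining pair (Hist1h1d and Hist1h2bq) are known only by their bounds. The 8 lowest log2 ratios among genes well above background on both arrays (Hist1h3f, Hist1h3c, Hist1h4c, Hist1h2aa, Hist1h4i, Hist1h1e, Hist1h2ba and Hist1h2bm) ran from -0.54 to -0.31. The 8 highest (Hist1h2ae, Hist2h2aa1, Hist2h2be, Hist1h3g, Hist1h2bb, Hist1h4h, Hist2h3c2-ps and Hist3h2a) ran from 0.76 to 0.09, and none of their signals exceeded 589.

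**Figure D2:**
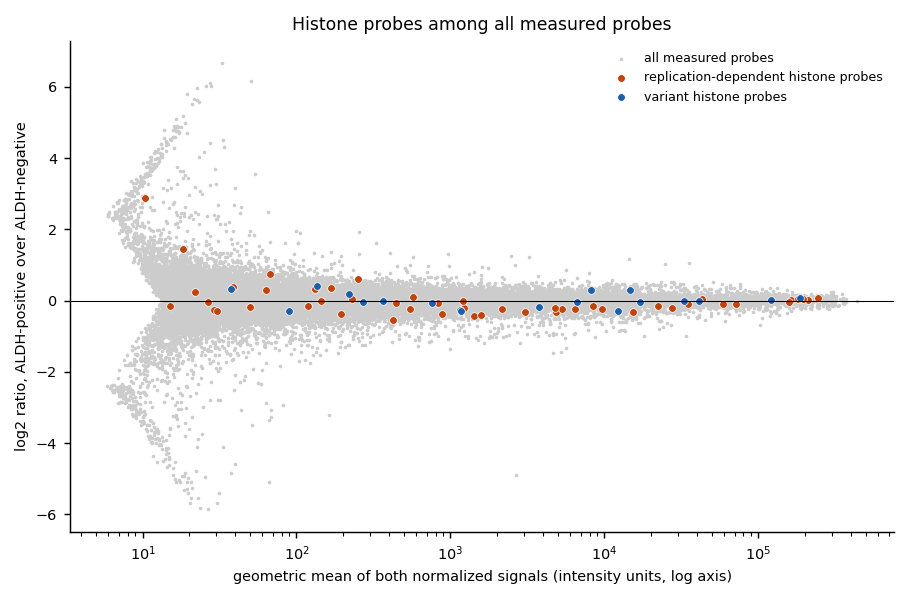
Log2 ratio (ALDH-positive over ALDH-negative) against the geometric mean of both signals on a log axis, for all 28583 measured probes in grey and for the 69 measured histone probes in colour. The replication-dependent probes with a mean signal from 1000 to 10000 lie below 0, those over 100000 lie at 0, and the highest ones lie at the dim end where the grey cloud is wide.

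None of the variant histone genes was called, and their log2 ratios are given by family. H2afx (H2ax), which encodes the H2A.X that is phosphorylated at DNA breaks, had 7365 and 9129.6, a log2 ratio of 0.31 ± 0.20 and a Z-score of 1.71. H2afv (H2az2), 1 of the H2A.Z genes, had 13279.7 and 16312 (0.30 ± 0.20), and its second probe had 205 and 234 (0.19). H2afz (H2az1), the other H2A.Z gene, had 120192 and 120454, a log2 ratio of 0.00 (0.0031), and 32828 and 32693 on its second probe (-0.01). Neither H2A.Z gene had a log2 ratio below -0.01 on any probe.

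The macroH2A genes encode H2A with a large added domain and are known from silent chromatin. H2afy2 (Macroh2a2) had signals of 1302 and 1059 (log2 ratio -0.30 ± 0.20). H2afy (Macroh2a1) had 4018 and 3566 (-0.17), and its other probes had 1269 and 1059 (-0.26) and 368 and 362 (-0.03). H2afy3 (Macroh2a3), which the gene table lists as a transcribed pseudogene, had 33.3 and 42.1 (0.33 ± 0.27). All probes of the protein-coding macroH2A genes were below 0.

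H3.3, the H3 variant laid down outside replication, is encoded by H3f3a and H3f3b. H3f3b had 41374 and 41342, a log2 ratio of 0.00 (-0.0011), 6738 and 6517 on another probe (-0.05), and 118 and 156 on its dimmest probe (0.40 ± 0.21). H3f3a had 17161 and 16738 (-0.04), and 13421 and 11057 on its other probe (-0.28 ± 0.20). For H3f3a the probes thus differed, 1 near 0 and 1 below 0 by more than its error.

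H2afj (H2aj) had signals of 180416 and 189724 (log2 ratio 0.07) on the probe that matched Hist2h2ac in 45 of 50 overlapping bases. Its other probe, which matched no other histone probe in 40 bases, had 273 and 265 (-0.04). The linker variant H1f0, known from cells that leave the cycle, had 772 and 736 (-0.07). H1foo (H1f8), the linker histone of oocytes, had 99.7 and 81.0 (-0.30 ± 0.22).

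Where a gene had more than 1 measured probe, the probes served as a check within the arrays. This held for 10 genes, 4 replication-dependent and 6 variant. Their probes differed by 0.01 (H2afz) to 0.45 (H3f3b), and no gene had probes that differed by more than 0.5. Hist1h4i had 3 measured probes at -0.37, -0.23 and -0.07, all below 0. Hist1h4k had -0.09 and -0.23, Hist2h4 -0.11 and -0.03, and Hist1h2ak 0.03 at the end of its reading frame and -0.15 at its start. The second Hist2h4 probe was dim, with signals of 27.0 and 26.5 and an error of 0.30. In Hist1h4i, Hist1h4k, Hist2h4, Hist1h2ak and H2afj, 1 probe matched a probe of another gene in at least 40 bases. The check is therefore not independent for these genes.

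**Figure D3:**
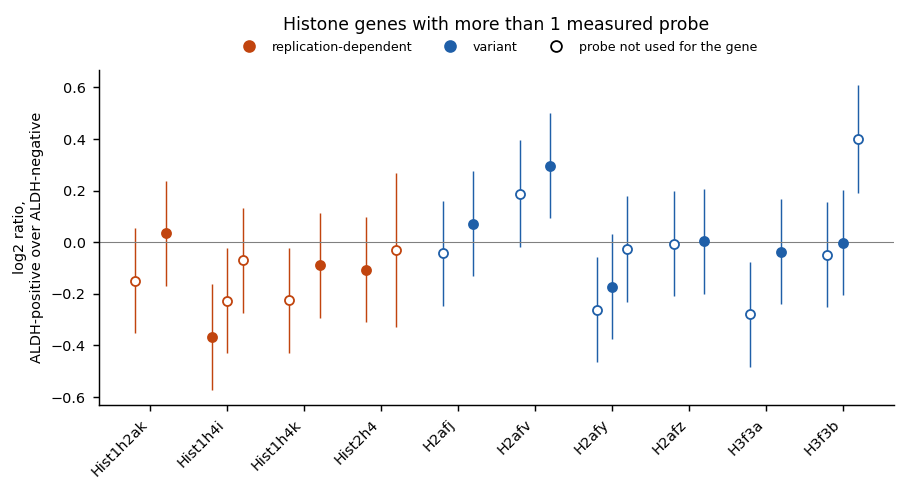
Log2 ratio (ALDH-positive over ALDH-negative) of each measured probe of the 10 histone genes with more than 1, with the scanner error as bars and filled symbols for the probe that represents the gene. The probes of the H4 genes all lie below 0, although some of them match probes of other H4 genes. The widest range is that of H3f3b, from -0.05 to 0.40.

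How the signals were scaled mattered for the sign of families near 0. With each array shifted to its 75th percentile in place of quantile normalization, the median of H2A turned from 0.03 to -0.07, that of the H2A variants from 0.07 to -0.03, and that of H3.3 from -0.02 to 0.06. Hist1h3c then had a log2 ratio of -0.36 and was no longer called. H1, H2B, H3, H4 and the H1 variants had medians below 0 under all 5 scalings. Apart from the 75th percentile shift these all use quantile normalization, and the deposited table nearly repeats the main values. They are therefore not separate checks. Those of H4 ran from -0.20 to -0.13.

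**Figure D4:**
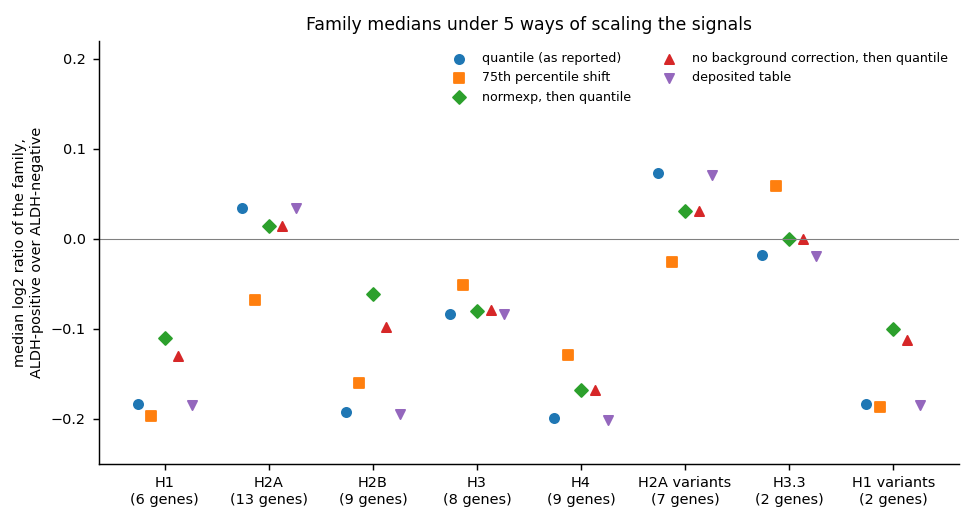
Median log2 ratio (ALDH-positive over ALDH-negative) of each histone family under 5 ways of scaling the same arrays, with the number of measured genes under each family. H4, H2B, H3 and H1 lie below 0 under every scaling, whereas H2A, the H2A variants and H3.3 change sign between scalings.

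The machinery around the histones showed no called gene, where 1.58% of all measured genes were called higher and 3.25% lower. In lists this short the absence of calls cannot be told apart from those shares. Over all measured genes 46.0% were below 0. Of 21 genes for transcription, 3′ end processing and decay of histone mRNA 20 were measured, 12 below 0, with a median log2 ratio of -0.04. Slbp, the stem-loop binding protein, had signals of 937 and 861 (-0.12), and Npat, the activator of histone gene transcription, was not measured. Zfp473, a zinc finger protein of the 3′ processing complex, had the highest log2 ratio of the list (87.9 and 141, 0.68 ± 0.21) with a Z-score of 1.93. Of 28 names for histone chaperones and deposition factors 26 were on the array and measured, 11 below 0, with a median of 0.01. Chaf1a of the replication-coupled CAF-1 complex had 4189.6 and 4033 (-0.05), and Asf1b, which hands over H3 and H4, had 7113 and 7488 (0.07). The lowest value of the list was that of Srcap, which exchanges H2A.Z into nucleosomes (62.0 and 40.2, -0.62 ± 0.24), with a Z-score of -1.24. Hira and Daxx, which deposit H3.3, had 607 and 613 (0.01) and 4674 and 5049 (0.11).

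Of the other histone genes Cenpa, the centromeric H3, had signals of 8182 and 8107 (-0.01). Of 15 S-phase genes 14 were measured and 13 were below 0, none of them called, with a median of -0.07. Over all measured genes 46.0% were below 0, and 1.58% were called higher and 3.25% lower. The lowest were Cdc45 (333 and 241, -0.46) and Cdc6 (1163 and 884, -0.39), which load and activate the replicative helicase, and Pcna had 27706 and 26237 (-0.08). The part of the cell cycle in the replication-dependent histone values was not tested.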

How the data were processed

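RNA of 1 ALDH-positive and 1 ALDH-negative 4T1 population was measured on 1-colour (Cy3) Agilent SurePrint G3 Mouse arrays. The authors used Agilent Feature Extraction (version 9.5.1.1 per the submitters' processing notes but 10.7.1.1 per the file headers) to read spot intensities and subtract background, and deposited a table of quantile-normalized intensity. The labels and the paper name different RNA kits. Here processed signals of 59305 non-control spots were averaged per probe on the log2 scale and quantile-normalized over 55681 probes. The deposited table moved the log2 ratio of a measured histone probe by at most 0.0078.

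Histone probes were matched with each other only, without gaps, at shifts of up to 30 bases. They were not matched with transcripts, so a probe without a match may still bind mRNA of other histone genes. Promoter sequences came from RefSeq, GRCm38.p6. The genes described singly are each measured variant gene, each called replication-dependent gene, the 8 highest and 8 lowest of that class among genes well above background on both arrays, and genes whose probes differ by more than 0.5. The remaining members are given for completeness, and Zfp473, Srcap, Cdc45, Cdc6 and Hils1 were named after their values were seen. Members, lists and tests were chosen with earlier results of these data known. With 1 array per population no test was made; precision is limited by that number. The steps were tested on simulated data. 1 leukocyte marker is not reported here. Alternatives changed the background correction (limma 3.58.1, normexp with an offset of 50), scaling, probe choice and call rule. Python 3.11.15, pandas 2.3.3 and numpy 2.4.6 were used.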

Additional observations from a re-analysis of the deposited data

How the results depend on the processing

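The median log2 ratio of the replication-dependent genes stayed below 0 under all 9 alternatives that give a median, between -0.14 and -0.05, and that of the variant genes stayed between -0.04 and 0.01. The counts of calls were less stable. The 2 replication-dependent genes called higher became 0 with normexp correction and 0 without background correction, 1 among genes well above background on both arrays, 1 without the last eighth of rows and columns, 1 with a Z-score window of 100 probes, and 4 by the ratio alone, at 1.5 with its inverse or with 0.75. The 2 called lower became 1 after the 75th percentile shift, and 0 without probes matching another gene in 40 bases (chosen after seeing the data), 0 with 1 Z-score distribution for all probes, and 0 by the ratio alone at 1.5 and its inverse, where the lower limit moved as well: at 0.75 and without a Z-score (added after seeing the data) there were 2. With the single distribution the 2 called higher were Hist1h1d and Hist1h2bq. No variant gene was called under any alternative. No paired analysis was possible because each population had 1 array, and for the same reason no array could be left out. Dim probes limit the calls: the scanner error of the log2 ratio was 1.2 for Hist1h1d.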
